A study of Mus musculus with 20 samples.

Results

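The subunits of the phagocyte NADPH oxidase described here are Cybb, Cyba, Ncf1, Ncf4 and Rac2, taken as the rows with those 5 symbols out of 51456 in each library's table. All 5 were listed in every library and passed the minimum mean of 1 FPKQ, as did 10843 genes in all. FPKQ is the unit of the deposited tables, a read density per length of transcript that behaves as an FPKM scaled by a quantile. The study compared bone-marrow-derived macrophages, cells grown from mouse marrow with the growth factor CSF-1, from mice that differed in Trem2, a surface receptor of myeloid cells that binds lipids. RNA came from C57BL/6 mice aged 4 to 5 months after 6 days of culture in 50 ng/ml CSF-1, and the labels name no other agent. The groups were wild type (WT, 10 libraries), a Trem2 knockout labelled as 5 bp (KO, 5 libraries) and a knock-in of the R47H substitution of Trem2 (R47H, 5 libraries). The alleles were carried by the whole animal and not by macrophages alone. Per the design text, each genotype comprised 5 mice, and littermates without the mutation served as controls. The labels do not tie a wild-type library to a mutant line, so KO and R47H share all 10 WT libraries as controls here, and WT Rep1 to Rep5 and, separately, WT Rep6 to Rep10 were used as alternatives.

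The phagocyte NADPH oxidase passes electrons from NADPH in the cytosol to oxygen on the far side of a membrane and so makes superoxide. Its catalytic subunit gp91phox (NOX2), encoded by Cybb, sits in the membrane with p22phox, encoded by Cyba, and each stabilises the other. In resting cells its further subunits stay in the cytosol: p47phox (Ncf1) organises the complex and docks on p22phox once phosphorylated, p40phox (Ncf4) binds a phosphoinositide of phagosome membranes, and the GTPase Rac2 joins them when it holds GTP. Macrophages use the complex in phagosomes, and its loss in people causes chronic granulomatous disease.

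On GRCm38 with the GENCODE M21 annotation, Cybb lies at chrX:9435252-9487771, Cyba at chr8:122424776-122432930, Ncf1 at chr5:134220053-134229625 and Rac2 at chr15:78559167-78572783, all on the minus strand. Ncf4 lies on the plus strand of the same chromosome as Rac2, at chr15:78244801-78262580, and 296.6 kb separate the 2 genes. All 5 are protein-coding, and the levels below are sums over their transcripts. No RefSeq promoter on GRCm38.p6 was matched for Ncf4 or Rac2, and the promoters matched for the other 3 of the 5 genes are shown. Each has 280 bases, 250 before the RefSeq start of transcription and 30 after it, read 5′ to 3′ along the gene, at chrX:9469295-9469574 for Cybb, chr8:122432911-122433190 for Cyba and chr5:134229596-134229875 for Ncf1. Capitals mark matches on either strand to 4 motifs: GAAA, any 2 bases, then GAAA (the form bound by interferon regulatory factors, IRF), GGAA, any 2 bases, then GAAA (a composite of the ETS and IRF forms), TGANTCA (AP-1) and GAGGAAGT (the ETS form bound by PU.1).
Cybb: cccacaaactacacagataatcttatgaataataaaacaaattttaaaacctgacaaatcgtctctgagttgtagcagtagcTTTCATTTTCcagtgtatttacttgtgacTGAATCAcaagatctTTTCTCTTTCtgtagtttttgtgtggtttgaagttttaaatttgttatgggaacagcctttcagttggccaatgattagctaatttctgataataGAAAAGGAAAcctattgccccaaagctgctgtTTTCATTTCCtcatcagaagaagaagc
Cyba: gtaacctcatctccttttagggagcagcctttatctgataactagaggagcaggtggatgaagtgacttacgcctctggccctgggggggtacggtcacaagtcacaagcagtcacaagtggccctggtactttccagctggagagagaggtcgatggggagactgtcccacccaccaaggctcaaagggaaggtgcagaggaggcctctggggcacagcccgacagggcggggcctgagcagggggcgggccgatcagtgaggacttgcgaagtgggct
Ncf1: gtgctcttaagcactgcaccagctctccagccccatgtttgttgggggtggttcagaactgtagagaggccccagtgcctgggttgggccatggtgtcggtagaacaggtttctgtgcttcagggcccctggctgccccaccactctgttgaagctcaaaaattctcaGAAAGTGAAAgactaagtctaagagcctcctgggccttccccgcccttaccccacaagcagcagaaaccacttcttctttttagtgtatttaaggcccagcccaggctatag
The Cybb window held 3 matches to the IRF form, 1 to the ETS-IRF composite and 1 to the AP-1 form, with no overlap among them. The Ncf1 window held 1 match to the IRF form, and the Cyba window held none of the 4. Of 32851 RefSeq promoter windows of this length, 3.28% held the IRF form, 2.55% the composite, 7.46% the AP-1 form and 2.82% the PU.1 form. The short ETS core GGAA, not capitalised, occurred 4 times in the Cybb window, 2 times in that of Cyba and 1 time in that of Ncf1, and in 95.1% of all windows. Base composition differed too, with 34.3% G and C in the Cybb window, 53.9% in that of Ncf1 and 60.0% in that of Cyba.

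The libraries were comparable in depth, and 2 of them stood apart. One FPKQ in a transcript of 2 kb corresponded to an estimated 46.3 to 70.4 fragments, with means of 60.6 ± 5.03 in WT (SD, n = 10), 51.5 ± 3.89 in KO (SD, n = 5) and 52.2 ± 3.56 in R47H (SD, n = 5). The subunits rested on at least 1304 estimated fragments in any library (Rac2), and Cyba on at least 13092, so that counting error was at most 2.77%. Correlations of log2 values between libraries of a group ran from 0.980 to 0.995. Trem2 had a mean of 806 FPKQ in WT, 24.1 in KO and 652 in R47H, which matches the KO label, while the level says nothing of the R47H substitution. Trem2 was called lower in R47H than in WT (-0.33, limma adjusted p = 0.0110), though not against WT Rep6 to Rep10 alone (-0.27, limma adjusted p = 0.115). In R47H Rep2 and Rep3 the tenth of genes richest in G and C lay 0.26 and 0.28 log2 units above the tenth that was poorest, as medians of deviations from each gene's mean over all libraries, against -0.20 to 0.07 in the other 18 libraries. Genes with short transcripts lay 0.46 and 0.42 above those with long ones in these libraries, against -0.37 to 0.21 in the others. The transcripts of the subunits span this range: Cybb is 42.4% G and C (percentile 15 of tested genes), Rac2 52.8%, Ncf1 53.4%, Ncf4 55.7% and Cyba 59.3% (percentile 95.2). Results in R47H are therefore also given without these 2 libraries, which were picked by this measure after the data were seen.

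All subunits were among the more abundant transcripts of these macrophages, and they kept one order. In WT the mean levels were 834 ± 96.9 FPKQ for Cyba, 357 ± 24.7 for Cybb, 219 ± 13.3 for Ncf1, 128 ± 5.98 for Rac2 and 103 ± 7.95 for Ncf4 (SD, n = 10). These means stood at percentiles 99.2, 97.8, 96.6, 94.4 and 92.8 of all tested genes. The order was the same in KO and R47H and in every library, and the ranges of neighbours did not overlap within a group, except for Rac2 and Ncf4 in R47H. Per unit of transcript length, Cyba exceeded Cybb 2.34-fold in WT, 2.23-fold in KO and 2.68-fold in R47H by the group means.

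**Figure D1:**
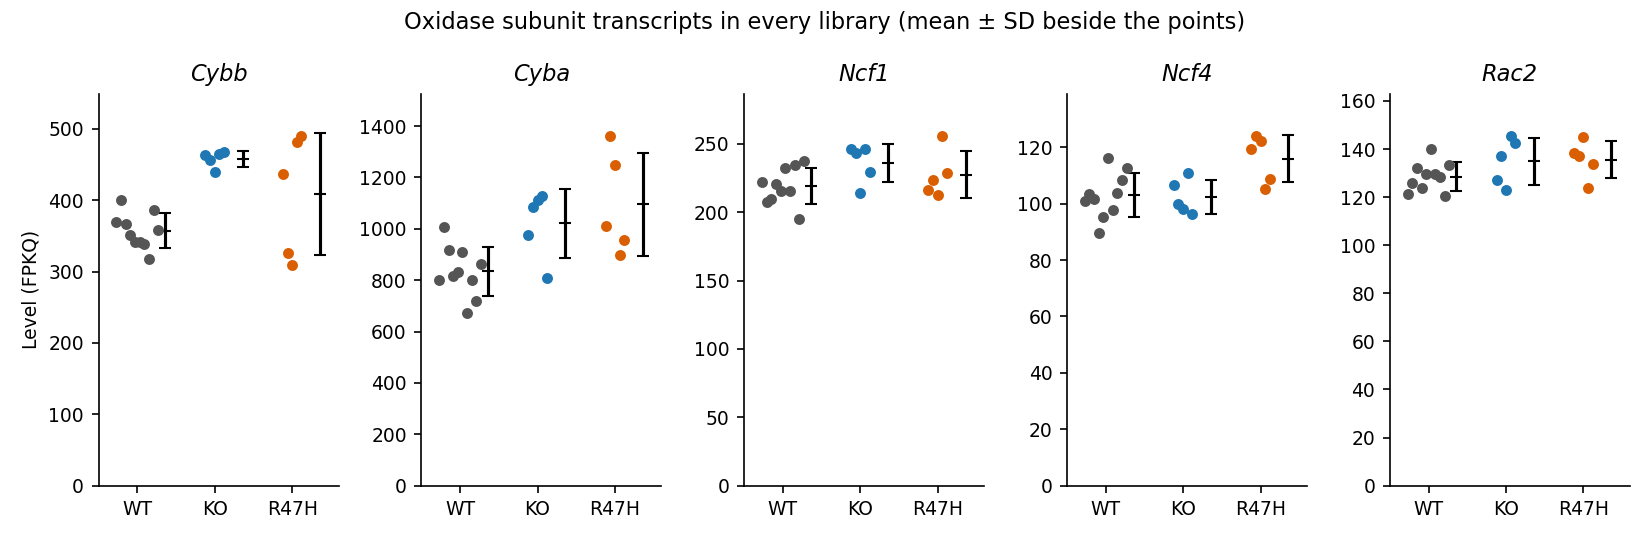
Levels of the 5 subunits in each library (y axis, FPKQ, from 0), by group (x axis: WT, KO, R47H). Points are libraries, and bars show the mean and SD (n = 10, 5 and 5); the 5 KO libraries lie above every WT library for Cybb, and the R47H libraries fall into a high and a low set for Cybb.

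Against WT, the KO macrophages had higher levels of both membrane subunits, and no change was called in Ncf1, Ncf4 or Rac2. In R47H macrophages Cyba and Ncf4 were called higher. In each mutant 2 of the 5 were called higher at an adjusted p under 0.05 (limma over all tested genes), where 52% of the tested genes were called in KO (28.2% higher, 23.7% lower) and 21.2% in R47H (13.4% higher, 7.83% lower), and 0 of the 5 were called lower in either. With 5 genes these counts carry no test of their own. In bulk RNA, a change in the number of cells of a type and a change in the RNA per cell cannot be told apart. The median difference over the 5 subunits was 0.11 on the log2 scale in KO and 0.17 in R47H, beside 0.01 and 0.04 over all tested genes.

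Cybb ranged from 317 to 400.4 FPKQ over the WT libraries, with a median of 355. The KO libraries Rep1 to Rep5 had 463, 456, 439, 464 and 467. Every KO library lay above the highest WT library, so the groups did not overlap, which held in this direction for 15.4% of tested genes, and in the other for 13.3%. Cybb was 0.36 higher in KO on the log2(FPKQ + 1) scale (SE 0.09, 95% interval 0.18 to 0.54, limma adjusted p = 0.00169), a rise of 28.2% in the mean. Its exact two-sided permutation p was 6.66e-04, the smallest that the 3003 splits can give. The KO libraries were also close to each other, with a coefficient of variation of 2.46%, beside 6.91% in WT and a median of 8.67% over tested genes in KO.

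In R47H the 5 libraries had Cybb at 437, 326, 309, 481 and 491 FPKQ. Rep1, Rep4 and Rep5 lay above every WT library, Rep2 lay within the WT range and Rep3 below it, so that the coefficient of variation was 20.9%, beside a median of 12.0% over tested genes. The mean difference from WT was 0.17 (SE 0.09, interval -0.01 to 0.35, limma adjusted p = 0.181), which did not pass. Groups without overlap made up 3.77% (higher) and 3.14% (lower) of tested genes for R47H against WT, and none of the 5 subunits was among them. The 2 libraries at the low end are those that stand apart by base composition. Without both of them the difference was 0.39 (limma adjusted p = 1.04e-04), with the libraries' base-composition measure as a covariate it was 0.26 (limma adjusted p = 0.00892), and without Rep3 alone it was 0.26 (limma adjusted p = 0.0237). It was smaller after scaling to equal sums (0.049, limma adjusted p = 0.783), after quantile normalization (0.092, limma adjusted p = 0.610) and without Rep4 or Rep5 (0.11 and 0.099, limma adjusted p = 0.427 and 0.457). The part of base composition in the Cybb level was not tested beyond these fits. Rep2 and Rep3 also had the highest Trem2 levels of the R47H libraries, at 772 and 794 FPKQ. Rep1, Rep4 and Rep5 had Trem2 at 673, 496 and 527. The part of the Trem2 level in that of Cybb was not tested. Against KO, R47H had Cybb lower by 0.19 (log2 -0.19, SE 0.10, limma adjusted p = 0.141), with 3 libraries below and 2 above the KO range, and the difference without Rep2 and Rep3 was 0.03 (limma adjusted p = 0.727). It passed after quantile normalization (-0.35, limma adjusted p = 0.0318) and without R47H Rep4 or Rep5 (-0.25 and -0.26, limma adjusted p = 0.0476 and 0.0402).

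Cyba, the most abundant subunit transcript, ranged from 674 to 1007 FPKQ in WT with a median of 825. The KO libraries had 977, 1084, 1111, 1126 and 808, of which Rep2, Rep3 and Rep4 lay above the WT range and the other two within it. The difference was 0.29 (SE 0.10, interval 0.08 to 0.50, limma adjusted p = 0.0230, exact permutation p = 0.0153). It ended against WT Rep1 to Rep5 alone, at 0.22 (limma adjusted p = 0.157), and without any one of KO Rep2, Rep3 or Rep4 (adjusted p of 0.0594, 0.0669 and 0.0687).

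R47H libraries had Cyba at 1009, 1363, 1249.5, 899.9 and 958 FPKQ. Rep1, Rep2 and Rep3 lay above the WT range, and the highest values were those of Rep2 and Rep3, in which Cybb was lowest. The difference from WT was 0.38 (SE 0.10, interval 0.17 to 0.60, limma adjusted p = 0.0104, exact permutation p = 0.00666), which placed Cyba at percentile 96.6 of all tested genes. Without Rep2 and Rep3 it was 0.20 (limma adjusted p = 0.196), without Rep2 alone 0.30 (limma adjusted p = 0.0522), with the control limited to WT Rep1 to Rep5 0.31 (limma adjusted p = 0.0830), and with the base-composition covariate 0.30 (limma adjusted p = 0.0262). Between the mutants Cyba differed by 0.09 (SE 0.12, limma adjusted p = 0.552).

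**Figure D2:**
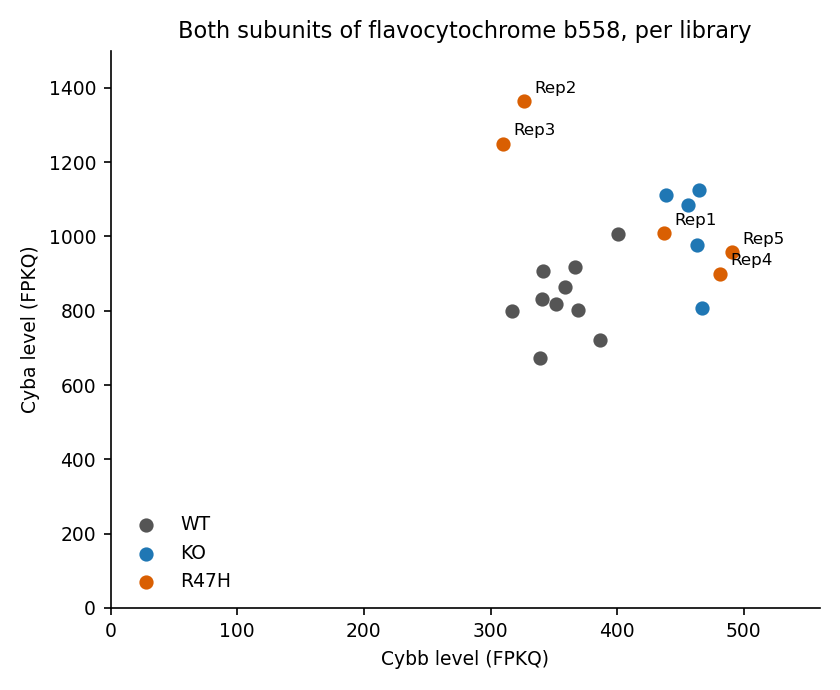
Cyba (y axis, FPKQ) against Cybb (x axis, FPKQ) in the 20 libraries, coloured by group, with the R47H libraries labelled by replicate. The KO libraries lie to the right of all WT libraries, and R47H Rep2 and Rep3 lie above and to the left of the other 3 R47H libraries.

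The ratio of the membrane partners shows the same split. Cyba exceeded Cybb 1.86-fold to 2.66-fold in WT and 1.73-fold to 2.53-fold in KO, and the R47H libraries had 2.31, 4.18, 4.04, 1.87 and 1.95. The log2 ratio differed from WT by -0.07 in KO (exact permutation p = 0.486, 0.583 adjusted over 6 ratio tests) and by 0.21 in R47H (exact permutation p = 0.263, 0.583 adjusted), so neither passed, and these tests were added after the values had been seen. Without R47H Rep2 and Rep3 the R47H difference was -0.19 (exact permutation p = 0.105).

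**Figure D3:**
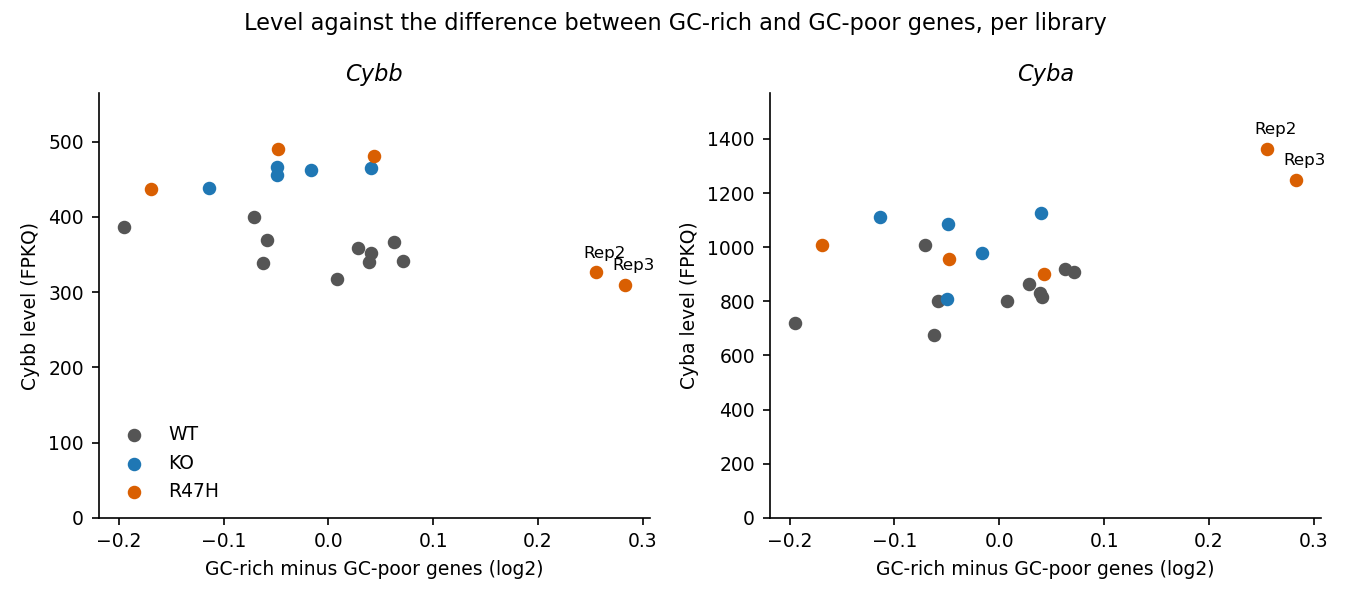
Levels of Cybb and of Cyba (y axes, FPKQ, from 0) against the library's base-composition measure (x axis, median log2 deviation of genes rich in G and C minus that of genes poor in them), 1 point per library, coloured by group. R47H Rep2 and Rep3 are the 2 points farthest to the right, at 0.26 and 0.28.

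The cytosolic organiser Ncf1 ranged from 195 to 237 FPKQ in WT, with a median of 218. KO libraries had 246, 244, 214, 246 and 229.5, and R47H libraries 216, 223, 213, 256 and 229. Both mutants overlapped WT. The KO difference was 0.11 (SE 0.05, interval -0.0017 to 0.22, limma adjusted p = 0.0926) and did not pass, though its exact permutation p for the gene alone was 0.0400. This difference passed without KO Rep3 (0.14, limma adjusted p = 0.0385) and with array weights (0.13, limma adjusted p = 0.0187). After scaling to equal sums it was 0.025 (limma adjusted p = 0.771). In R47H the difference was 0.05 (limma adjusted p = 0.509).

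Ncf4, which carries the phosphoinositide-binding subunit, ranged from 89.7 to 116 FPKQ in WT with a median of 103. KO libraries had 107, 99.8, 98.0, 111 and 96.4, all within the WT range. R47H libraries had 119, 124, 122, 105 and 109, with Rep1, Rep2 and Rep3 above it. The KO difference was -0.01 (SE 0.06, interval -0.13 to 0.11, limma adjusted p = 0.915). Ncf4 was 0.17 higher in R47H than in WT (SE 0.06, interval 0.05 to 0.29, limma adjusted p = 0.0387, exact permutation p = 0.0153) and 0.18 higher than in KO (SE 0.07, interval 0.04 to 0.32, limma adjusted p = 0.0364, exact permutation p = 0.0397). It was the only 1 of the 5 subunits called between the mutants, where 40.7% of tested genes were called in either direction and 22.8% higher in R47H. Both calls were fragile. The difference from WT was 0.11 without Rep2 and Rep3 (limma adjusted p = 0.278), 0.10 against WT Rep6 to Rep10 alone (limma adjusted p = 0.291) and 0.04 after quantile normalization (limma adjusted p = 0.593), and it failed in 17 of 34 alternatives.

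Rac2, the GTPase of the complex found mainly in blood cells, ranged from 120.3 to 140.1 FPKQ in WT, with a median of 129. KO libraries had 127, 137, 123, 146 and 142, and R47H libraries 138, 137, 145, 124 and 134. The groups overlapped, and the differences were 0.07 in KO (SE 0.05, interval -0.03 to 0.17, limma adjusted p = 0.236) and 0.08 in R47H (limma adjusted p = 0.271). Both of these differences turned negative, to -0.01 and -0.04, when libraries were scaled to equal sums. Rac1, the GTPase found in most cell types, had 186 ± 8.86 FPKQ in WT (SD, n = 10), 186 ± 5.85 in KO and 194 ± 11.2 in R47H (SD, n = 5), and the ratio of Rac2 to Rac1 was 0.693 ± 0.054 in WT, 0.726 ± 0.066 in KO and 0.700 ± 0.032 in R47H.

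**Figure D4:**
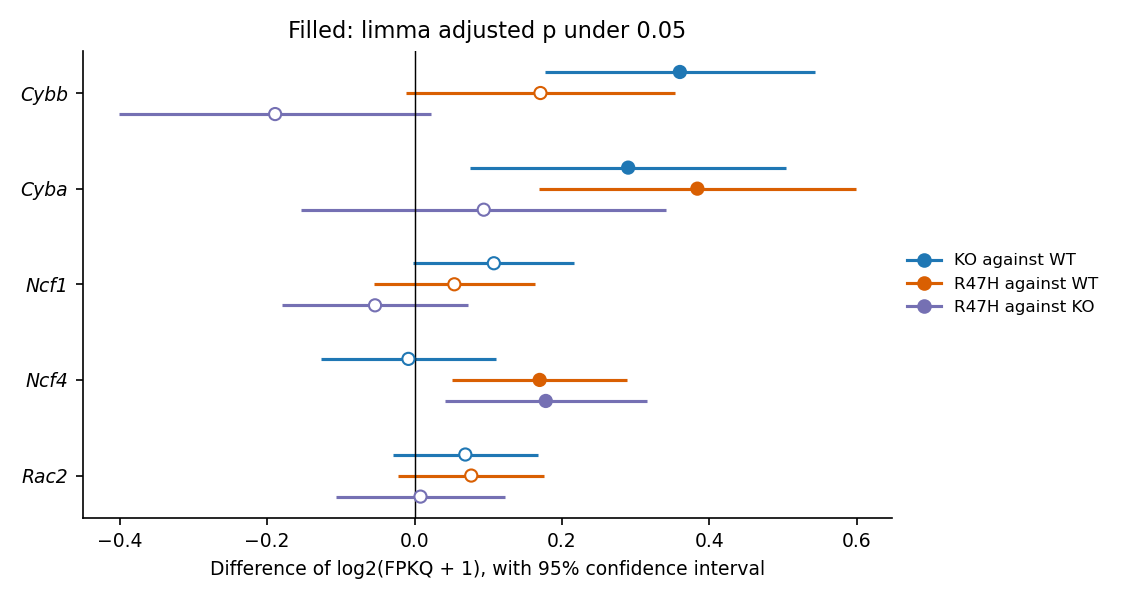
Differences on the log2(FPKQ + 1) scale (x axis) for the 5 subunits (y axis), in KO and R47H against WT and in R47H against KO, with 95% intervals from limma. Filled points passed an adjusted p of 0.05: Cybb and Cyba in KO, Cyba and Ncf4 in R47H, and Ncf4 between the mutants.

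The choice of wild-type set moved some of these values. WT Rep1 to Rep5 had, in turn with WT Rep6 to Rep10, means of 366 and 349 FPKQ for Cybb, 875 and 793 for Cyba, 215 and 223 for Ncf1, 98.3 and 108 for Ncf4, and 127 and 130.4 for Rac2. None of the 5 was called between the sets (limma adjusted p from 0.195 to 0.736), where 6.51% of tested genes were. The differences between the sets were still sizeable beside those of the mutants, at -0.15 for Cyba and 0.13 for Ncf4, and the Ncf4 difference in R47H was 0.24 against WT Rep1 to Rep5 and 0.10 against WT Rep6 to Rep10.

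Beyond these 5 genes, 4 genes tied to the assembly or function of the complex were tested. Of these 4, 2 were called higher in KO and 2 in R47H, with 0 lower (28.2% and 13.4% of all tested genes were called higher), and neither Rac1 nor Rap1a, a small GTPase that associates with the membrane subunits, was called. Hvcn1, the voltage-gated proton channel that offsets the charge moved by the oxidase, rose from 61.9 ± 6.05 FPKQ in WT to 91.7 ± 7.56 in KO (0.56, limma adjusted p = 2.06e-07) and 75.6 ± 3.49 in R47H (0.29, limma adjusted p = 0.00243), and R47H lay 0.27 below KO (log2 -0.27, limma adjusted p = 0.00617). Nrros, a membrane protein of the endoplasmic reticulum reported to limit NOX2, had 138 ± 8.81 FPKQ in WT, 159 ± 9.52 in KO (0.20, limma adjusted p = 0.00153) and 155 ± 6.27 in R47H (0.17, limma adjusted p = 0.0156). After scaling to equal sums the Nrros calls were lost (limma adjusted p = 0.103 in KO and 0.598 in R47H), as was that of Hvcn1 in R47H (0.0946).

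Other catalytic NADPH oxidases were near or at 0. None of 9 genes of the wider NOX family reached a mean of 1 FPKQ over the 20 libraries, and Nox4, Duox1, Duox2 and Duoxa2 were listed at 0 in every library. Nox1 had 1.01 ± 0.21 FPKQ in WT (SD, n = 10), 0.19 ± 0.11 in KO and 0.40 ± 0.23 in R47H (SD, n = 5), and without the filter on low values it was called lower in KO (-0.76, limma adjusted p = 2.72e-06) and R47H (-0.53, limma adjusted p = 8.69e-04). Noxo1, the organiser that serves Nox1 in place of Ncf1, had 0.57 ± 0.16 FPKQ in WT, 0.98 ± 0.08 in KO and 0.45 ± 0.21 in R47H, and the unfiltered fit called it higher in KO (0.34, limma adjusted p = 0.00259).

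Enzymes that supply NADPH, the electron donor of the oxidase, were called in both directions in KO and higher in R47H. Of 9 tested, 6 were higher and 2 lower in KO, and 5 were higher and 0 lower in R47H, with medians of 0.23 and 0.20 beside 0.01 and 0.04 over all tested genes. Among all tested genes 28.2% were called higher and 23.7% lower in KO, and 13.4% and 7.83% in R47H, and the counts of this and the following lists are descriptions beside those shares. Nadk, which phosphorylates NAD to NADP, rose from 76.8 ± 4.27 FPKQ in WT to 106 ± 7.69 in KO (0.45, limma adjusted p = 6.62e-07) and 93.6 ± 8.84 in R47H (0.28, limma adjusted p = 9.96e-04), the latter not after scaling to equal sums (0.16, limma adjusted p = 0.131). Taldo1, of the pentose phosphate pathway, rose from 259 ± 10.7 to 333 ± 21.8 in KO (0.36, limma adjusted p = 1.54e-05) and 330 ± 35.9 in R47H (0.34, limma adjusted p = 1.32e-04). The 2 called lower in KO were Tkt (-0.33, limma adjusted p = 3.35e-05) and Me1 (-0.44, limma adjusted p = 1.67e-04).

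Genes that remove superoxide and peroxide moved both ways, with 5 of 11 tested higher and 4 lower in KO, and 4 higher and 1 lower in R47H. Cat, the catalase of peroxisomes, rose from 162 ± 10.7 FPKQ in WT to 392 ± 21.8 in KO (1.27, limma adjusted p = 1.12e-13) and 239 ± 21.9 in R47H (0.55, limma adjusted p = 3.49e-07). Prdx4, a peroxiredoxin of the endoplasmic reticulum, fell from 91.2 ± 8.81 in WT to 54.5 ± 4.69 in KO (-0.73, limma adjusted p = 2.79e-08) and 73.6 ± 7.69 in R47H (-0.30, limma adjusted p = 0.00455). Between the mutants Cat was lower in R47H (-0.72, limma adjusted p = 4.48e-08) and the glutathione peroxidase Gpx1 was higher, at 587 ± 93.8 against 394 ± 18.6 (0.56, limma adjusted p = 5.61e-05). Gpx1 had 646 ± 56.4 FPKQ in WT. Against that level it was lower in KO (-0.71, limma adjusted p = 1.13e-07) and not called in R47H (-0.15, limma adjusted p = 0.194).

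Kinases and lipases that activate the complex were called higher for 4 and lower for 2 of 9 tested in KO, and higher for 2 and lower for 1 in R47H, beside 52% and 21.2% of all tested genes called in either direction. Prkcb, a protein kinase C that phosphorylates p47phox, rose in KO from 40.4 ± 4.80 to 55.1 ± 4.41 FPKQ (0.44, limma adjusted p = 9.36e-04) and was lower in R47H than in KO (-0.48, limma adjusted p = 0.00286). That difference between the mutants missed the threshold without R47H Rep2 and Rep3 (limma adjusted p = 0.0561). Pla2g4a, the cytosolic phospholipase that releases arachidonate, fell in both, from 11.9 ± 1.01 FPKQ to 7.56 ± 0.91 in KO (-0.60, limma adjusted p = 1.97e-05) and 8.79 ± 1.85 in R47H (-0.42, limma adjusted p = 0.00294), the latter not against WT Rep1 to Rep5 alone (0.0677).

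Exchange factors and inhibitors of Rac moved both ways. In KO 2 of 11 were higher and 4 lower, and in R47H 3 were higher and 2 lower; 52% and 21.2% of all tested genes were called in KO and R47H. Vav2 rose from 9.68 ± 1.08 FPKQ in WT to 17.7 ± 1.10 in KO (0.81, limma adjusted p = 1.49e-09) and 11.9 ± 0.97 in R47H (0.27, limma adjusted p = 0.00576). Its level was lower in R47H than in KO (-0.54, limma adjusted p = 1.67e-05). Tiam1 fell from 5.64 ± 0.63 FPKQ to 2.52 ± 0.30 in KO (-0.91, limma adjusted p = 3.82e-09) and 2.83 ± 0.55 in R47H (-0.80, limma adjusted p = 3.16e-07).

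Of 8 tested transcription factors known to act on oxidase genes, 3 were higher and 1 lower in KO, and 4 were higher and 0 lower in R47H, where 52% and 21.2% of all tested genes were called in either direction. Cebpa rose from 40.2 ± 4.02 FPKQ to 53.2 ± 3.88 in KO (0.40, limma adjusted p = 2.69e-04) and 51.9 ± 8.17 in R47H (0.35, limma adjusted p = 0.00281), the latter not without R47H Rep2 and Rep3 (0.0820). Irf1 rose from 44.8 ± 5.31 to 54.6 ± 5.35 in KO (0.29, limma adjusted p = 0.00329) and 56.6 ± 3.23 in R47H (0.34, limma adjusted p = 0.00252), and neither call held against WT Rep1 to Rep5 alone (0.0900 and 0.0511). Spi1, which encodes PU.1, fell from 202 ± 14.3 FPKQ in WT to 173 ± 15.5 in KO (-0.22, limma adjusted p = 0.0102). It stood at 203 ± 23 in R47H, with no call against WT (1.15e-05, limma adjusted p = 0.9999). Spi1 was thus higher in R47H than in KO (0.22, limma adjusted p = 0.0310). That call ended in 13 alternatives, among them without R47H Rep2 and Rep3 (0.15, limma adjusted p = 0.216) and with the base-composition covariate (0.14, limma adjusted p = 0.106).

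**Figure D5:**
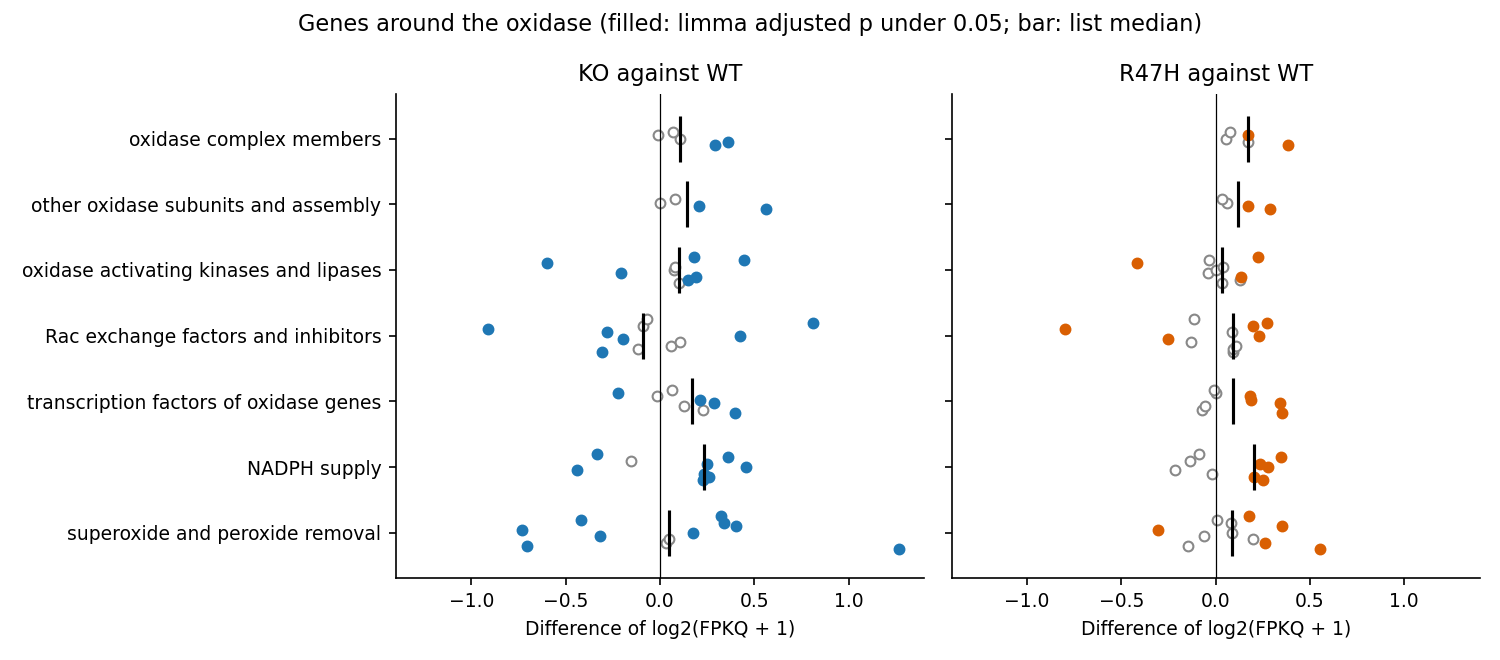
Differences from WT on the log2(FPKQ + 1) scale (x axis) for the tested genes of each list (y axis), in KO and in R47H. Each point is a gene, filled points passed an adjusted p of 0.05 and bars are list medians; of 9 NADPH supply genes, 6 are filled to the right of 0 in KO and 5 in R47H, while the lists of Rac regulators and of peroxide removal spread to both sides.

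Markers of macrophages differed between the groups as well. The summed level of 8 macrophage markers ranged from 23155 to 26582 FPKQ in WT, 32452 to 35218 in KO and 26406 to 29495 in R47H, most of it Lyz2, and none was at 0. In KO 4 of the 8 were higher and 3 lower, among them Csf1r (0.48) and Cd14 (-1.26), and in R47H 4 were higher and 2 lower. Neutrophils also express the oxidase: the sum of 16 neutrophil markers ranged from 76.2 to 114 FPKQ in WT, 108 to 141 in KO and 91.0 to 164 in R47H, and 7 of the 16 passed the minimum. The median difference of those 7 was 0.17 in KO and 0.41 in R47H, beside 0.01 and 0.04 over all tested genes, and all 7 differences were above 0 in R47H. Of those 7, Csf3r and Mmp8 were higher in KO and Csf3r and Ngp in R47H, while the neutrophil surface marker Ly6g was listed at 0 in all WT and KO libraries and in 4 of 5 R47H libraries (0.12 FPKQ in the other), and the granule genes Elane, Mpo and Prtn3 had group means of at most 1.10 FPKQ. Among markers below the minimum, the means did not all move one way. Retnlg (0.16 FPKQ in WT, 0.01 in KO, 0.03 in R47H) and Cxcr2 (0.15, 0.10 and 0.11) were lower in both mutants. Elane, Mpo, Prtn3, Ctsg and Cd177 had higher means in both mutants than in WT. B cell markers summed to 58.4 to 89.4 FPKQ over all libraries, and markers of eosinophils and mast cells, dendritic cells, T and NK cells, and stroma and erythroid cells to at most 3.22, 2.95, 0.88 and 0.93. The part of these shifts in the levels of the oxidase subunits was not tested.

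Across the 20 libraries the subunits did not follow one pattern. The Pearson r of log2 levels was 0.12 for Cybb with Cyba, and -0.48 after group means were removed, whereas it was 0.57 for Cyba with Ncf4 and 0.51 for Ncf4 with Rac2. These are descriptions over libraries that share a genotype, a depth and a base composition. The tested genes most like Cybb were Erap1 (r = 0.93) and Tlr8 (0.93), and those most like Cyba were Selenos (0.96) and Ergic3 (0.93). For Ncf4 they were Gas8 (0.89) and Evl (0.88), for Rac2 Ddost (0.80) and Eri3 (0.79), and for Ncf1 Tbc1d17 (0.79) and Ifit1bl1 (0.78). With group means removed the r of these pairs ran from 0.72 to 0.94. On chromosome 15, 12 listed genes lie between Ncf4 and Rac2, of which 6 were tested. Between these 2 subunits, neither of which was called in KO, lay Tst (0.96, limma adjusted p = 8.26e-08) and Csf2rb, the common beta chain of cytokine receptors (0.65, limma adjusted p = 4.69e-07), both higher in KO and chosen after their values were seen.

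Scaling moved all genes together. Scaling each library to equal sums moved the median difference of all genes from 0.04 to -0.07 in R47H and from 0.01 to -0.06 in KO, and the share of calls that were higher from 63.1% to 20.7% in R47H and from 54.3% to 36.1% in KO. Under quantile normalization these shares were 48.6% and 54.3%. Relative to the median of all genes, Cybb lay 0.35 higher in KO as deposited and 0.34 higher after scaling to equal sums, and it passed under both.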

How the data were processed

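RNA-seq of mouse bone-marrow-derived macrophages was deposited as 20 tables, 1 per library (10 WT, 5 KO, 5 R47H). Their values, named FPKQ, were taken to be FPKM that the authors rescaled by a quantile, since in each library the 71.5th percentile of protein-coding genes was about 10 (9.98 to 10.0). No source used here defines the unit. The submitters' processing notes name RSEM and GRCm38, without versions or settings. Libraries were poly-A selected and strand-specific (dUTP), with paired reads of 75 bases, per the labels' protocols. Since RSEM shares out reads that match several genes, paralogs such as Rac1 and Rac2 are measured less surely.

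Of 51456 symbols, 45889 were in GENCODE M21 (89.2%). Small values of 14084 single-transcript genes served to estimate depth, and 86.7% to 91.5% were whole fragments within 0.1; because this was incomplete, no count test was run. No 2 of the 190 pairs of libraries were identical. The 10843 genes whose mean reached 1 FPKQ were tested on log2(FPKQ + 1), so fold changes of low genes are understated. One model of the 3 groups was fitted with limma 3.58.1 in R 4.3.3 (lmFit, eBayes with a trend), with Benjamini-Hochberg adjustment over all tested genes and calls at 0.05. Exact two-sided permutation tests of single genes enumerated every assignment of labels within the 2 groups compared. Both mutants share the WT libraries, so their differences are not independent. The design text gives 5 animals per genotype and does not say whether the 10 WT libraries came from 10 animals, so p-values measure only the spread between libraries.

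The members and gene lists were chosen with earlier results of these data known. The rule for named genes took the 5 members, all assembly genes, up to 4 genes per list and comparison with the smallest adjusted p, and the 2 genes most like each member. Alternatives covered the pseudocount, filter, scaling, moderation, library weights, groups in the fit, wild-type set, a replicate block and each library left out. Fits without R47H Rep2 and Rep3, fits with base composition as a covariate, and the ratios were added after seeing the data. Base composition and transcript length came from the longest transcript of 10134 genes. The fit was tested on simulated data. Python 3.11.15, numpy 2.4.6, pandas 2.3.3, scipy 1.17.1 and matplotlib 3.10.9 were used. Some results of the pathway are not reported here.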

Additional observations from a re-analysis of the deposited data

How the results depend on the processing

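The rise of Cybb in KO passed in all 34 alternatives (0.28 to 0.44, adjusted p up to 0.0345), that of Cyba in 28 of 34 in KO and 30 of 34 in R47H, and that of Ncf4 in 17 of 34 in R47H. Some alternatives cannot move a difference. Leaving out libraries of the group not compared, or changing the filter or moderation, alters only the estimated spread and the adjusted p. Of the 5 subunits, 2 were called in KO, 2 in R47H and 1 between the mutants. In KO the count was 1 with no filter, with WT Rep1 to Rep5 and with a replicate block. It rose with array weights, where Ncf1 (0.13, limma adjusted p = 0.0187) was called beside Cybb and Cyba. In R47H it was 1 with no filter, quantile normalization, equal sums, array weights, either wild-type set, only the 2 groups or without R47H Rep2 and Rep3. The called subunit was Ncf4 with WT Rep1 to Rep5. It was Cybb with array weights (0.30, limma adjusted p = 0.00869) and without R47H Rep2 and Rep3, where neither Cyba nor Ncf4 passed. With array weights Cyba in R47H was 0.27 (limma adjusted p = 0.0706). Between the mutants the count was 0 with no filter, equal sums, array weights, only the 2 groups, the base-composition covariate or without those 2 libraries. Leaving out each library gave 1 to 2, 0 to 2 and 0 to 2 called subunits, and 5217 to 5758, 1704 to 2360 and 3743 to 4709 called genes (5636, 2301 and 4417 with all). The cause was not tested.

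Small differences changed sign. In KO, Ncf4 was 0.012 with array weights and 0.057 with WT Rep1 to Rep5 or the replicate block, and Rac1 was -0.027 (quantile), -0.081 (equal sums), -1.67e-05 (array weights), -0.013 (WT Rep1 to Rep5, and the block) and -9.57e-04 (covariate). Rac2 was -0.0045 (quantile) and -0.014 (equal sums), and Rap1a -0.0046 (equal sums). In R47H, under quantile normalization and equal sums, Ncf1 was -0.034 and -0.068, Rac1 -0.050 and -0.062, Rac2 -0.038 and -0.045, and Rap1a -0.045 and -0.087, with Rap1a -0.013 against WT Rep6 to Rep10. Between the mutants Cyba was -0.084 (quantile), -0.047 (array weights), -0.015 (covariate) and -0.086 (without R47H Rep2 and Rep3). Rac2 was -0.033 (quantile), -0.031 (equal sums), -0.022 (array weights), -0.028 (covariate) and -0.030 (without the 2 libraries), Rac1 -0.023 (quantile), and Cybb 0.035 without the 2 libraries. Without them the log2 ratio of Cyba to Cybb was -0.12 against KO and -0.19 against WT, and that of Rac2 to Rac1 -0.0078 against WT. With single libraries left out, Ncf4 and Rac1 in KO ran from -0.037 to 0.013 and -0.016 to 0.013, and Rac2 and Rap1a between the mutants from -0.025 to 0.040 and -0.072 to 0.0048.

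Libraries with the same replicate number did not pair: their deviations correlated at -0.12 to 0.31 between KO and R47H, -0.25 to 0.34 between WT and KO and 0.02 to 0.22 between WT and R47H, and 1 of 5 matched its own number best in each. Only WT Rep1 to Rep5 entered this check. A pairing of WT Rep6 to Rep10 with either mutant was not examined. In the replicate block WT Rep6 to Rep10 share a number with no mutant library and so add nothing to a difference from WT, which equals that against WT Rep1 to Rep5; blocking and the control set therefore changed together. The replicate block gave 4398, 1802 and 4178 called genes, and Cyba in KO at 0.22 (limma adjusted p = 0.0595). With 5 libraries per mutant, the 95% intervals printed with each subunit limit the differences that could be detected.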
